A study of Triticum aestivum with 15 samples.

Results

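The RNA class of wheat leaf transcripts described here was made up of 31 probe sets of the Affymetrix Wheat Genome Array, out of 61179 probe sets once the 111 control probe sets were set aside. They were taken from the table in which the study listed the probe sets altered by a foreign cytoplasm. Of the 560 probe sets of that table, 39 carried a functional class beginning with RNA. From these, 2 WRKY factor probe sets, 3 LSD1 probe sets and 3 probe sets placed in the chloroplast were left out. The remaining 31 belonged to 28 transcript clusters, a cluster being the probe sets that share the first part of their identifier, and were sorted into 8 role groups. The gene names used below are those of the best Arabidopsis match in that table, so that a name stands for a likeness and not for an identified wheat gene. Where several probe sets share a name their signal or the letters closing the identifier (x_at and the like) tell them apart. The platform annotation gave a symbol to 2 of the 31 members, both of them uninformative locus numbers.

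Because the study put these probe sets in its table by their change between an alloplasmic line and its euplasmic control, these changes chose the members, and they are given as a description without a test. The comparison of the euplasmic lines with each other shares its control arrays with that choice and was treated in the same way.

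Leaves of 5 lines were measured, each on 3 arrays hybridised with RNA of separate leaf samples. An alloplasmic line holds the nucleus of 1 species with the plastids and mitochondria of another, and a euplasmic line holds its own. TH237 combined the nucleus of the wheat T20 with the cytoplasm of the wild barley Hordeum chilense, and T20 was its euplasmic control. T183 and T195 combined the nucleus of the wheat Chris with the cytoplasm of Aegilops uniaristata and of Aegilops squarrosa (called Ae. tauschii in the study), and Chris was their control. All plants were 14 days old, the second fully expanded leaf was taken, plants were bulked, and they had grown under the higher of the study's light intensities. TH237 had been backcrossed to its nuclear parent far fewer times than T183 and T195, which limits it as a model of a pure cytoplasm exchange.

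Nuclear genes encode nearly all proteins that transcribe, splice and decay RNA in the nucleus and cytosol, and many of those that act inside plastids and mitochondria. Plastids also carry genes of their own, among them the subunits of a bacterial-type RNA polymerase that transcribes photosynthesis genes. Transcription factors of the CONSTANS, MADS box, MYB and zinc finger families act in the nucleus, where they link light, hormones and nutrients to gene expression.

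Signals were the deposited linear values, and changes are log2 differences of signal plus 16 between line means, with the standard error of a model fitted to all 15 arrays. A probe set was kept where it exceeded the 55th percentile of the array, a signal of 90.0 to 121 depending on the array, on at least 3 arrays. It was called changed at an adjusted p of at most 0.05 with at least a 2-fold difference. All 31 members passed the filter, 16 of them on all 15 arrays. The other members include those that passed mainly through the line in which they were high: the CONSTANS-like zinc finger exceeded the limit on 3 arrays, all of TH237, and the ribonuclease T2 on 4. In 12 members at least 1 line lay below the limit on each of its arrays.

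Replicate arrays of 1 line correlated at r = 0.956 to 0.969 across the probe sets kept. The summed signal of 28 probe sets of the Rubisco large subunit was 73154 to 149590 per array. Of these 28, 7 lay above the limit on all arrays and 13 below it on all arrays, so that part of them carried the sum. For 11 probe sets of grain storage proteins the sum was 256 to 557, and 9 of them lay below the limit on all arrays. The 11 chlorophyll a/b-binding probe sets of the study's table, themselves chosen on these samples, summed to 29913 to 45744 for T20, 111979 to 129519 for TH237, 6069 to 16501 for Chris, 3411 to 3814 for T183 and 4019 to 10667 for T195. The ratio of the 3' to the 5' control probe set is a sign of RNA quality. For elongation factor 1a it was 2.63 to 10.6 in T20 and 0.182 to 1.22 in TH237. In Chris this ratio was 0.705 to 1.26, in T183 0.924 to 3.29 and in T195 0.177 to 6.53. For T20 and TH237 the ratios of actin were 1.22 to 1.48 and 1.09 to 2.56, and those of GAPDH 0.321 to 0.468 and 0.322 to 0.580. The part of these quantities in the results below was not tested. In whole leaves, fewer cells of a type and less RNA per cell cannot be told apart.

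In TH237, 21 of the 31 members were called against T20, 16 higher and 5 lower. Over all 31555 probe sets tested, 2.28% were called in this comparison, 1.35% higher and 0.925% lower. As the members were listed for this change, nothing is read from the excess. The largest changes were in the plastid RNA polymerase, a ribonuclease, a CONSTANS-like factor and a DNA methyltransferase, and the largest negative ones in the zinc finger ZAT11, a glycine-rich protein and the B-box factor. The median change of the members was 1.12, beside 0.00 over all probe sets tested. In the Chris background the median change was -0.14 in T183 and -0.43 in T195, and the median size regardless of sign was 0.31 and 0.50, against 1.34 in TH237. Single members went against this, most of all the PWI probe set described below as bright in Chris, whose changes of -6.78 and -6.57 exceeded in size any change in TH237. There the share of all probe sets called was 0.124% for T183 and 0.254% for T195, and 1 and 2 members were called, respectively.

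Not all calls in TH237 held when 1 array was left out. The call of the a_at GARP probe set was lost without any 1 of 11 arrays, all those of T20, TH237 and Chris, T183 replicate 3 and T195 replicate 3, with the change at 1.41 to 1.83. DRM2 lost its call without any 1 of the 6 arrays of T20 and TH237, at 0.96 to 1.06. The PHR1-like factor lost it without any T20 array or TH237 replicate 1 or 2, at 1.69 to 2.12, and the x_at DRM1 probe set without T20 replicate 1 or 3 or TH237 replicate 1 or 2, at 0.86 to 1.17. The brightest and the second PWI probe set lost it without T20 replicate 1 or 2 or TH237 replicate 1 or 3, at 0.89 to 1.15. RLI2 lost it without T20 replicate 1 or TH237 replicate 1, at 1.11 and 1.24. Without any TH237 array the CONSTANS-like zinc finger no longer passed the filter.

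**Figure D1:**
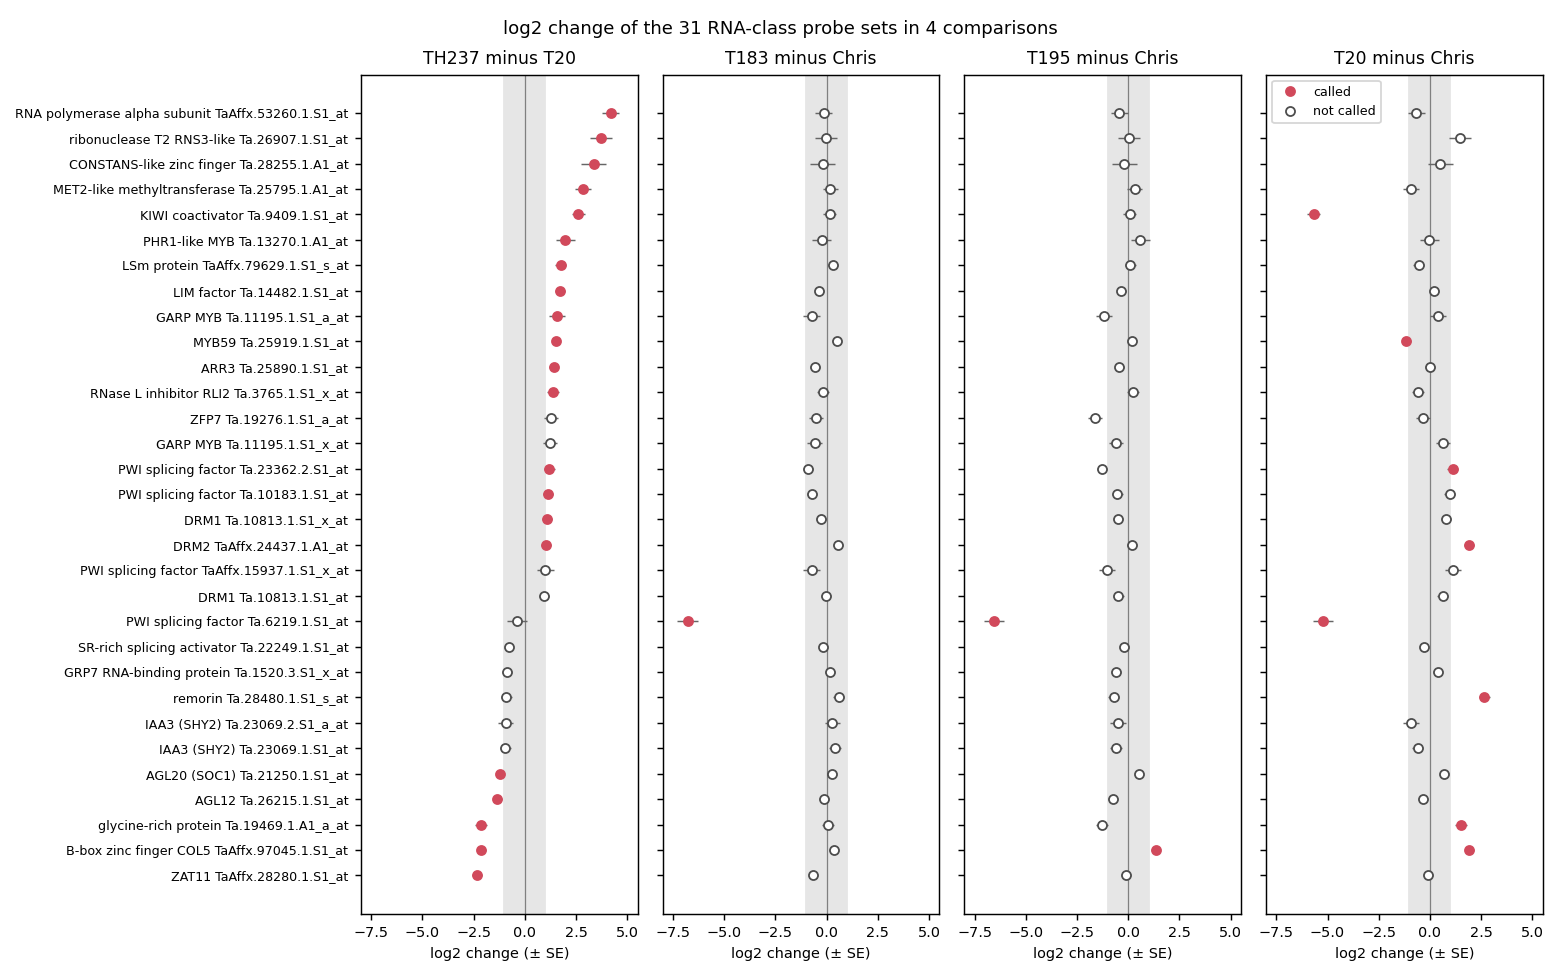
The log2 change (± SE, x axis) of each of the 31 members (y axis, in the order of their change in TH237) is shown in 4 comparisons of line means, each with 3 arrays a line. Filled points were called, open points were not, and the grey band marks changes under 2-fold. TH237 shows 21 called members, T183 and T195 show 1 and 2, and T20 against Chris shows 8.

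The alpha subunit of RNA polymerase is encoded in the plastid genome and helps to assemble the plastid-encoded polymerase. Its table entry gave no localization, and the member was therefore kept. Signals were 100.4, 219 and 291 in T20 and 3490.4, 3501 and 4196 in TH237. The Chris arrays read 194, 536 and 270.0, those of T183 161, 313 and 406, and those of T195 173, 309 and 204. The TH237 arrays stood far above the other 12, which overlapped between all 4 lines. TH237 thus differed from T20 by 4.20 ± 0.42, against -0.14 ± 0.42 for T183 and -0.43 ± 0.42 for T195 relative to Chris. In each alloplasmic line this transcript comes from the foreign plastid genome. How well the probes match it was not tested, so these are differences of signal.

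KIWI, a transcriptional coactivator that binds single-stranded DNA, was dim in T20, higher in TH237 and brightest with a Chris nucleus. Its signals were 35.8, 6.80 and 7.30 in T20, all below the limit, and 179, 132 and 201 in TH237. Chris arrays gave 1990.3, 1536 and 1191, T183 arrays 1303 to 2262 and T195 arrays 1327 to 1910.1. Hence TH237 lay above T20 on each array yet below each of the 9 arrays with a Chris nucleus. As T20 was dim on each array, KIWI was at least 1.59-fold higher in TH237 and at least 14.5-fold higher in Chris than in T20, a bound taken with the dim signals raised to the limit of their array.

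The largest group, of 9 members, acts in RNA processing, decay or binding. Of these 9, 5 were called higher in TH237, none lower, and 4 were not called. Ribonuclease T2, like the secreted enzyme RNS3 of Arabidopsis, read 839.5, 1151 and 407 in TH237 and 51.0, 3.45 and 121 in T20. In the 9 arrays with a Chris nucleus it stayed between 2.06 and 9.43, below the limit. Only 1 of the T20 arrays exceeded the limit, and the change in TH237 was 3.73 ± 0.53. 

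An LSm protein, of the family whose rings bind the ends of small nuclear and messenger RNAs, had signals of 209, 215 and 213 in T20 and 931, 537 and 842 in TH237. The 9 arrays of the Chris nucleus, at 247 to 481, lay between these lines without touching either. Its change was 1.75 ± 0.26 in TH237. The RNase L inhibitor RLI2, an ABC protein of ribosome recycling, was at 57.1, 140.4 and 87.1 in T20 and at 315, 223 and 245 in TH237, a change of 1.38 ± 0.28. Of its T20 arrays, 2 lay below the limit. Arrays of the Chris nucleus gave 91.3 to 212 for RLI2.

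A further 2 RNA-binding members were lower in TH237 without being called. The splicing activator rich in serine and arginine read 1556 to 2059 in T20 and 925 to 1076 in TH237, and it was the member with the smallest of the largest changes among the 31, at -0.77 ± 0.17. The glycine-rich RNA-binding protein GRP7, which in Arabidopsis cycles with the circadian clock, had 156 to 203 in T20 and 69.6 to 112 in TH237, a change of -0.85 ± 0.24. 

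**Figure D2:**
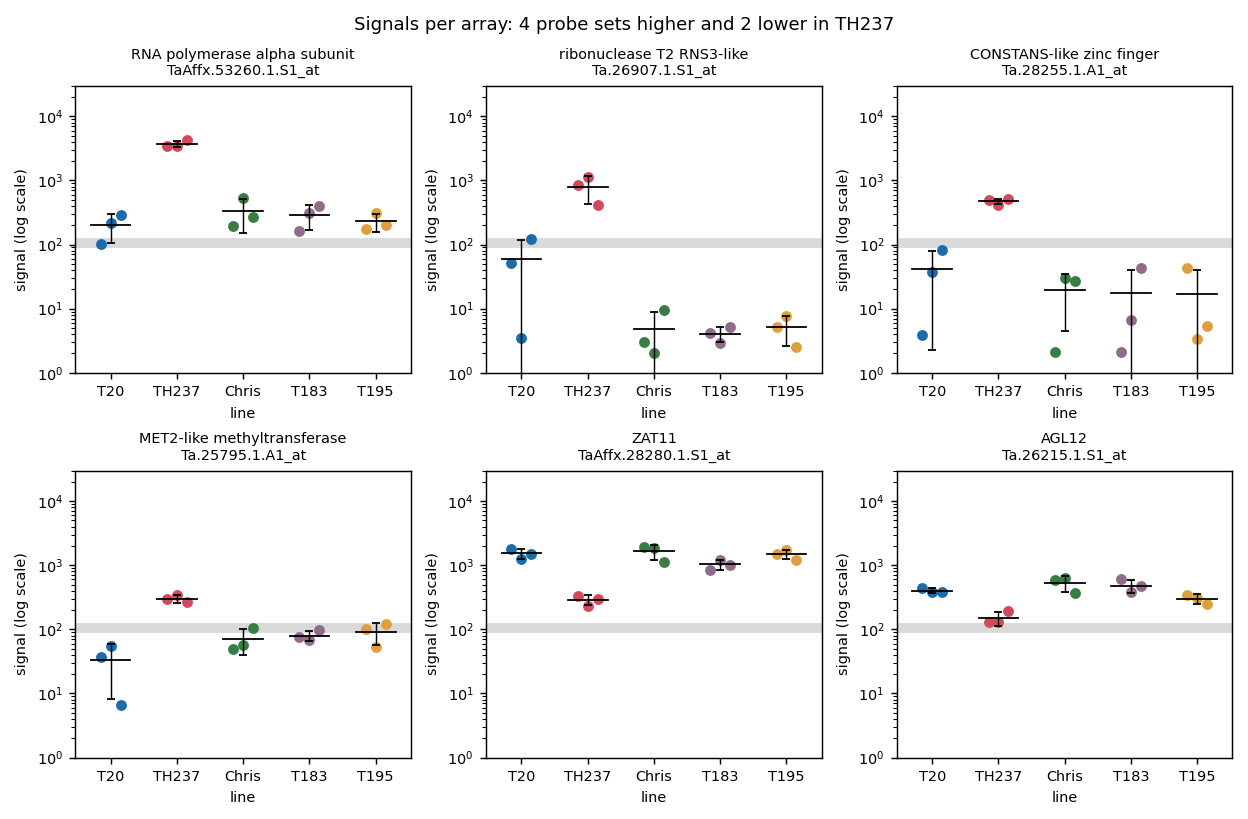
Signals (y axis, log scale) on the 3 arrays of each line (x axis) are shown as points for 4 members higher and 2 lower in TH237, with the mean (line) and SD (bar, running off the axis where the SD reaches the mean). The grey band is the range of the 55th percentiles, 90.0 to 121. TH237 stands apart from the other 12 arrays in all 6 panels.

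The PWI domain, a fold that binds nucleic acids in splicing factors, was named for 4 members. Of these, 3 ran alike over the 5 lines. The brightest of these read 5508, 6323 and 10843 in T20 and 17634, 14505 and 17631 in TH237. Chris arrays gave 3082, 3838 and 3145, T183 arrays 1220.1, 1959.7 and 2288, and T195 arrays 1411, 1315 and 1398. The order of its line means was thus TH237, T20, Chris, T183 and T195, and neighbouring lines overlapped only between T183 and T195.

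For the second of these probe sets, T20 arrays gave 623, 901 and 1185, TH237 arrays 2372, 1453 and 2062, and Chris arrays 423, 493 and 417. T183 had 186, 337 and 291 and T195 had 270.1, 345 and 288, again an overlapping pair below Chris. For the third, whose identifier ends in x_at, T20 arrays gave 575, 682 and 908, TH237 arrays 2030.5, 1145 and 1279, and Chris arrays 263, 390.5 and 309. Its signals were 139, 315 and 141 in T183 and 252, 179 and 66.1 in T195, so that Chris overlapped T183 here. The changes in TH237 were 1.19 ± 0.26, 1.12 ± 0.26 and 1.0 ± 0.41 for the 3 probe sets in this order, and in T20 against Chris they were 1.11 ± 0.26, 0.95 ± 0.26 and 1.12 ± 0.41. Only the first of them was called in the latter comparison. The brightest and the x_at probe set were matched to the same rice gene, so they may not be separate measurements.

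The fourth PWI probe set behaved in another way and was bright in Chris alone. It read 4589, 3809 and 3131 in Chris, while T183 read 39.2, 12.5 and 10.7 and T195 read 9.23, 69.1 and 14.3. T20 was at 75.0, 73.8 and 114 and TH237 at 51.3, 149.8 and 26.5. Chris stood above the other 12 arrays, of which 2 exceeded the limit. The change was -6.78 ± 0.50 in T183 and -6.57 ± 0.50 in T195, or at least 37.5-fold and at least 39.6-fold lower than in Chris with the dim signals at the limit. It was the only member called in T183 and, with the B-box factor, 1 of the 2 called in T195. In T20 against Chris it was lower by -5.22 ± 0.50 on the log2 scale. Of all probe sets, 0.250% had Chris above all other lines in this way. The changes that chose the members enter this pattern, and nothing is read from its share. The other probe set of its cluster stayed between 1.43 and 47.3 on all 15 arrays, Chris included, and was not tested.

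**Figure D3:**
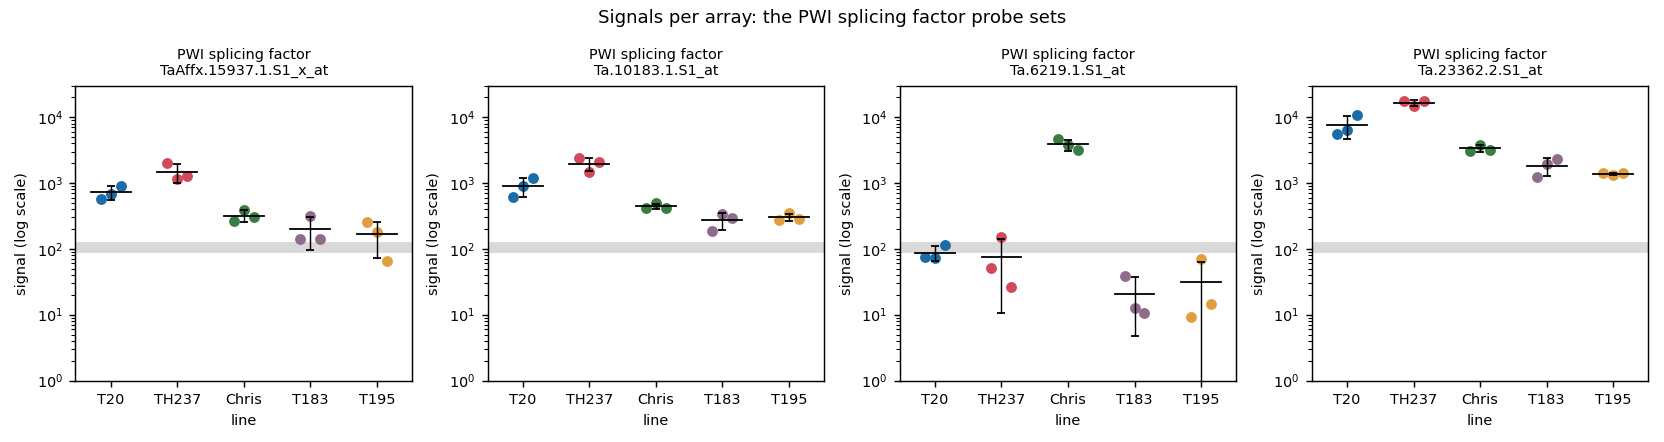
Signals (y axis, log scale) of the 4 PWI splicing factor probe sets on each array are shown by line (x axis), with mean and SD (bar, running off the axis where the SD reaches the mean) and the grey band of 55th percentiles. In 3 panels the lines run from TH237 down to the Chris nucleus, and the remaining one, left of the brightest, is high, at 3131 to 4589, in Chris alone.

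Families known for light signalling and flowering time had 4 members, and each was called in TH237, 1 higher and 3 lower. The B-box zinc finger matched to CONSTANS-LIKE 5 had as its best protein match ZCCT1 of Triticum monococcum, the flowering repressor of the vernalization locus. Its signals were 183.2, 248 and 237 in T20 and 47.0, 33.2 and 34.9 in TH237. Chris arrays gave 45.3, 50.8 and 43.1, T183 arrays 41.7, 97.5 and 60.3, and T195 arrays 163, 122 and 143. T20 and T195 were thus the only lines above the limit, T20 above T195 on each array, and TH237, Chris and T183 overlapped below it. The factor was at least 1.95-fold lower in TH237 than in T20, at least 2.16-fold higher in T20 than in Chris, and at least 1.38-fold higher in T195 than in Chris. The measured changes were -2.13 ± 0.22, 1.93 ± 0.22 and 1.34 ± 0.22, and the call in T195 was lost without any 1 of 5 single arrays, the 3 of Chris and replicates 1 and 3 of T195, with the change at 1.25 to 1.39, and with 64 in place of 16 added before the log2, at 0.90.

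A second CONSTANS-like zinc finger ran the opposite way in TH237, with signals of 489, 420.0 and 505 there and 3.87, 37.9 and 81.1 in T20. The 9 arrays with a Chris nucleus gave 2.12 to 43.7. The difference in TH237 was at least 4.44-fold, and the 4 other lines cannot be ordered because all lay below the limit. The table gave this member no localization, though another of its annotation columns mentions the chloroplast.

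AGL20, the MADS box factor SOC1 that integrates flowering signals in Arabidopsis, read 425, 411 and 565 in T20 and 196, 181 and 183.1 in TH237. AGL12, a MADS box factor known from Arabidopsis roots, read 438, 387 and 379 in T20 and 128, 129.8 and 196 in TH237. Both were lower in TH237 than on any of the other 12 arrays, with changes of -1.24 ± 0.19 and -1.34 ± 0.23. Signals with a Chris nucleus were 246 to 506 for AGL20 and 246 to 625 for AGL12.

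The DNA methyltransferases, 4 members, set methyl marks on cytosine. MET1-type enzymes copy marks at replication, and DRM enzymes place new ones under guidance of small RNAs in Arabidopsis. Of the members, 3 were called higher in TH237 and none lower. The MET2-like enzyme read 293, 342 and 263 in TH237 and 36.9, 55.9 and 6.60 in T20, at least 2.81-fold apart, while Chris, T183 and T195 ranged from 49.2 to 121. The DRM2-like enzyme was at 194, 188 and 166 in T20, 373, 390.4 and 396 in TH237, and below the limit, at 27.4 to 80.2, with a Chris nucleus. Its change was 1.02 ± 0.24 in TH237 and 1.91 ± 0.24 in T20 against Chris, where it was at least 1.78-fold. The pair of DRM1 probe sets had T20 means of 189 ± 67.3 and 116 ± 24.9 (SD, n = 3) and TH237 means of 405 ± 104 and 238 ± 69.6, with changes of 1.06 ± 0.24 (x_at, called) and 0.93 ± 0.26 (S1_at, not called). With a Chris nucleus these probe sets gave 49.7 to 112 and 38.3 to 85.1.

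Among the MYB and GARP factors, 3 of 4 probe sets were called higher in TH237. A factor like PHR1, the regulator of phosphate starvation, gave 469, 592 and 381 in T20, 1972, 2753 and 1242 in TH237 and 196 to 1001 with a Chris nucleus. MYB59 gave 1586, 2067 and 1893 in T20 against 5226, 6479.5 and 4424 in TH237. Its arrays of Chris, at 5665, 3754 and 3244, overlapped those of TH237, as did the 6 arrays of T183 and T195, at 4216 to 6532. T20 was therefore the line that stood apart, with a change of 1.52 ± 0.21 in TH237 and -1.15 ± 0.21 in T20 against Chris. The GARP factor was measured by a pair of probe sets. The a_at probe set gave 941, 1704 and 1015 in T20 and 3906, 4287 and 2618 in TH237, where Chris arrays gave 948, 859 and 868, T183 arrays 874, 284 and 603, and T195 arrays 237, 666 and 355. The x_at probe set gave 477, 804 and 503 in T20, 1384, 1616 and 1168 in TH237 and 119.6 to 388 with a Chris nucleus. Their changes in TH237 were 1.57 ± 0.41 (called) and 1.23 ± 0.35 (not called).

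Of the 3 other zinc finger and LIM members, ZAT11, a C2H2 zinc finger, read 1799, 1261 and 1519 in T20 and 329.6, 232 and 299.6 in TH237, with 847 to 1931 in the other lines. The change of -2.35 ± 0.23 was the lowest of all members in TH237. A LIM domain factor had means of 662 ± 24.6 in T20 and 2213 ± 214 in TH237 (SD, n = 3), a change of 1.71 ± 0.22, and 309 to 675 with a Chris nucleus. The zinc finger ZFP7 averaged 1211 ± 152 in T20 and 2981 ± 665 in TH237, where Chris averaged 1569 ± 444, T183 1076 ± 188 and T195 523 ± 245 (SD, n = 3). TH237 lay above and T195 below each array of the other lines, with changes of 1.27 ± 0.34 and -1.64 ± 0.34, neither of them called. T195 was below all others in 0.814% of all probe sets. Nothing is read from this share, as the changes that chose the members enter the pattern.

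The hormone regulators comprised ARR3, a response regulator of cytokinin signalling, and a pair of probe sets for IAA3, the auxin repressor SHY2. ARR3 had signals of 147, 207 and 243 in T20, 529, 594 and 506 in TH237, and 95.4 to 229.6 with a Chris nucleus, with a change of 1.40 ± 0.23. The S1_at probe set of IAA3 was lower in TH237 by -0.95 ± 0.29 (means of 773 ± 253 in T20 and 386 ± 84.6 in TH237). The fitted change of the a_at probe set was -0.93 ± 0.38 (113 ± 48.8 and 51.7 ± 25.4), and neither was called. The a_at probe set lay below the limit on all TH237 arrays and on 2 of the T20 arrays, so that these lines cannot be ordered for it. 

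The last 2 members fell outside these groups. The glycine-rich protein, classed as a putative regulator, read 2073, 1714 and 1735 in T20 and 350.1, 396 and 482 in TH237. Chris arrays gave 816, 409.6 and 740.0, T183 arrays 806, 725 and 506, and T195 arrays 374, 169 and 245. TH237 overlapped Chris and T195, and T20 stood alone above all. Its change was -2.13 ± 0.30 in TH237. Remorin, a protein of the plasma membrane, read 202, 170.2 and 160.1 in T20 and 73.0, 117 and 76.6 in TH237, and 1.63 to 47.6 in the other 9 arrays, all below the limit. Its change in TH237 was -0.90 ± 0.26, not called.

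Which line stood apart was counted over all members with signals below 121, the highest of the array limits, raised to that value. TH237 lay above each of the other 12 arrays in 18 members and below in 5, where 5.35% and 4.56% of all probe sets did so. This count follows the choice of the members and nothing is read from it. T20 stood above all other lines in 3 members, remorin, the B-box factor and the glycine-rich protein, and below in 3, the LSm protein, MYB59 and KIWI, against 1.94% and 1.91% of all probe sets. In 4 of the members that differed between TH237 and T20, namely MYB59, the B-box factor, the glycine-rich protein and remorin, T20 was apart from Chris too and the arrays of TH237 and Chris overlapped, at the raised value in the B-box factor and remorin. T20 was the higher line in 3 of them and the lower in 1, where 2.18% and 1.96% of all probe sets showed these patterns. The T20 arrays enter the choice of the members too, and nothing is read from these counts of T20 standing apart. With the signals as measured, TH237 stood apart from T20 on one side and T183 or T195 from Chris on the opposite side in 11 members, against 4.47% of all probe sets. The changes that chose the members enter this count, and nothing is read from it.

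**Figure D4:**
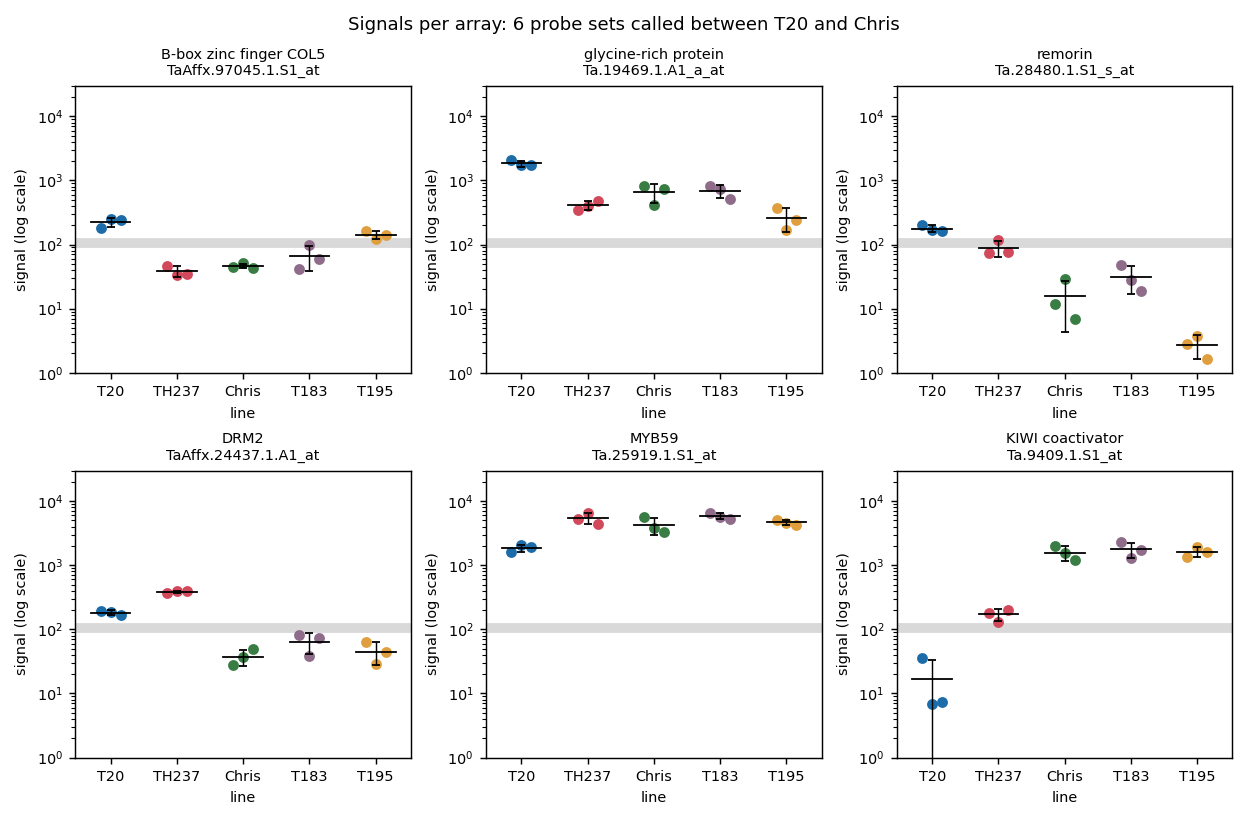
Signals (y axis, log scale) per array and line (x axis) of 6 of the 8 members called between T20 and Chris are shown with mean and SD (bar, running off the axis where the SD reaches the mean) and the grey band of 55th percentiles. MYB59 and the glycine-rich protein have TH237 overlapping Chris, DRM2 has both lines of the T20 nucleus above the band, and KIWI has them at 201 or less against 1191 or more with a Chris nucleus.

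Between the euplasmic wheats T20 and Chris, 8 members were called, 5 higher in T20 and 3 lower, where 7.32% of all probe sets were called, 3.14% higher and 4.19% lower. Higher in T20 were remorin by 2.66 ± 0.26 (at least 1.72-fold, Chris being dim), the B-box factor, DRM2, the glycine-rich protein by 1.52 ± 0.30 and the brightest PWI probe set. Lower were KIWI by -5.69 ± 0.32, the PWI probe set bright in Chris and MYB59. The call of the brightest PWI probe set was lost without T20 replicate 3, at 0.82, and that of MYB59 without Chris replicate 1, at -0.92. The median change of the members was 0.22, beside 0.01 over all. With signals below 121 raised to that value, the arrays of T20 and Chris did not overlap in 15 members. The same held for 30.3% of all probe sets.

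With all lines of a nucleus averaged (T20 and TH237 against Chris, T183 and T195), 19 members were called, 15 higher with the T20 nucleus and 4 lower, where 11.8% of all probe sets were called, 6% higher and 5.76% lower. TH237 is among the lines averaged, so the count is not free of the choice of members. Most of the 19 were not called between the euplasmic lines. In T20 against Chris the RNA polymerase alpha subunit was at -0.66 ± 0.42 and ZFP7 at -0.33 ± 0.34. ARR3 was at -0.01 ± 0.23 and ZAT11 at -0.09 ± 0.23 there, and the CONSTANS-like zinc finger was dim in both lines. Of the 19, only KIWI, DRM2, remorin and the brightest PWI probe set were called in T20 against Chris as well. Of the 10 largest fitted differences, 5 were of probe sets that no line had below the limit on all its arrays, the brightest PWI probe set at 2.43 ± 0.17, the x_at one at 2.21 ± 0.26, the second one at 1.94 ± 0.17 and the GARP probe sets at 1.82 ± 0.26 and 1.66 ± 0.22. The other 5 involved lines below the limit on each array and cannot be ranked. With the dim lines of the lower nucleus raised to the limit, KIWI was at least 12.1-fold lower with the T20 nucleus, while DRM2 was at least 2.66-fold, ribonuclease T2 at least 1.43-fold, remorin at least 1.24-fold and the CONSTANS-like zinc finger at least 1.04-fold higher. Their fitted values were -4.46 ± 0.21, 2.18 ± 0.16, 3.32 ± 0.34, 2.24 ± 0.17 and 2.32 ± 0.39 in this order. Without 1 array, calls between the nuclei were lost for the S1_at IAA3 probe set (8 arrays), ZAT11 (7), ZFP7 (6) and ARR3 (4), with changes of 0.87 or more in size. The B-box factor was not among the called, at 0.30 ± 0.14, with 1 high line of each nucleus.

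The Aegilops lines T183 and T195 share a nucleus. Their arrays also enter the changes that chose the members, so their difference is given as a description as well. None of the 31 members was called by limma, where 0.0729% of all probe sets were called. At an unadjusted p of 0.05, 8 of the members passed, beside 7.89% of all probe sets. These were remorin at 1.30 ± 0.26, the glycine-rich protein at 1.36 ± 0.30, ZFP7 at 1.13 ± 0.34, the IAA3 probe set S1_at at 0.99 ± 0.29, GRP7 at 0.74 ± 0.24 and AGL12 at 0.63 ± 0.23, all higher in T183, and the B-box factor at -0.99 ± 0.22 and ZAT11 at -0.52 ± 0.23. Without T183 replicate 2 the B-box factor was called, at -1.25. Remorin, ribonuclease T2, the CONSTANS-like zinc finger, DRM2, both DRM1 probe sets and the PWI probe set bright in Chris lay below the limit on all arrays of both lines, so that T183 and T195 cannot be ordered for them.

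The clusters of the members held 18 further probe sets, of which 15 were tested, and 1 was itself in the study's table under another class. In TH237, 3 were called higher and 1 lower, and 14 of 15 had the sign of their cluster's members. As probe sets of a cluster may share target sequence, these are not independent measurements. In the cluster of the brightest PWI probe set, both others were called in TH237, at 1.06 ± 0.27 and 1.25 ± 0.31, and in T20 against Chris at 1.56 ± 0.27 and 1.44 ± 0.31. The S1_at partner of the x_at PWI probe set was called in TH237 at 1.21 ± 0.26. Of the 2 others of the glycine-rich cluster, 1 was called at -2.12 ± 0.22 in TH237 and 2.20 ± 0.22 in T20 against Chris. It is the one in the study's table, so that it too was listed for its change. The other was called in neither comparison, at -0.92 ± 0.25 and 0.37 ± 0.25. In contrast, another probe set in the cluster of the second PWI member was at least 1.58-fold lower in T20, where it was dim on each array at 10.8 to 45.6, than in Chris, where each array was above the limit. The member of its cluster was higher in T20 by 0.95 ± 0.26, not called. The other remorin probe set read 326 to 509.7 on all 15 arrays. Called only between the nuclei were a further probe set of that PWI cluster at 1.47 ± 0.22 and the GARP cluster's others at 1.53 ± 0.19 and 1.09 ± 0.34. In the RLI2 cluster, the a_at probe set was at 0.92 ± 0.31 in TH237 and the other further one at 0.39 ± 0.21. Neither was called, against 1.38 ± 0.28 for the member of their cluster.

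The s_at probe set of the GRP7 cluster was the only cluster probe set called between the Aegilops lines. T183 arrays gave 5289, 4006 and 3966, T195 arrays 1925, 1871 and 1521, and Chris arrays 4439, 2433 and 2975. The arrays of T183 and T195 did not overlap, T195 was below Chris on each array, and T183 overlapped Chris. The difference between T183 and T195 was 1.31 ± 0.20, with an adjusted p of 0.032 by limma. As the probe set was picked for this call and shares a cluster with a member, this is a description too. The call was lost without any 1 of the arrays of either line, at adjusted p-values of 0.0605 to 0.137 by limma and a difference of 1.17 to 1.38, and also without T20 replicate 3, TH237 replicate 2 or 3, or Chris replicate 3.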

How the data were processed

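RNA of leaves was hybridised to 15 Affymetrix Wheat Genome Arrays, 3 for each of 5 lines. The deposited table holds linear intensity values that the authors obtained with the MAS5 algorithm per the labels, each array scaled to the same trimmed mean. The study's own list of altered probe sets came from RMA values, which were not used here, and from a Welch test. Only the identifiers, classes, localizations and descriptions of that list were read.

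Here 111 control probe sets were removed from 61290, log2(signal + 16) was taken, and probe sets above the 55th percentile of the array on 3 or more arrays were kept (31555). Adding 16 understates the change of dim probe sets, which is why bounds are given. One model of the 5 lines was fitted with limma (version 3.58.1, R version 4.3.3), with moderated variances and Benjamini-Hochberg adjustment over all probe sets kept. Arrays give no read depth, so their number, 3 a line, limits the precision. The labels name replicates without saying that they came from separate pots. The study describes bulking the plants of each pot and using 3 biological replicates for the arrays. p-values set a difference against the spread between arrays of a line, pooled over the 5 lines. The fit was checked on simulated data.

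The members and lists were chosen with earlier results of these data known. The rule for named genes took all members, with array values for the B-box factor, the PWI probe sets, the 10 largest nuclear differences and the largest change of each role group, and cluster probe sets called in any comparison. The average over nuclei was planned as a test, and so was the difference between T183 and T195 for members called in neither, but both are given as descriptions because their arrays enter the choice of the members. Lists of further genes of these families by symbol in the platform annotation held 0 probe sets and were not used. Replicate numbers were checked for pairing, and the same-numbered arrays of different lines deviated with a mean r of -0.0046. Sequences are not used here.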

Additional observations from a re-analysis of the deposited data

Results flagged for a closer look

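For 11 members all TH237 arrays lay on 1 side of all T20 arrays while all arrays of an Aegilops line lay on the opposite side of all Chris arrays, which held for 4.47% of all probe sets. The changes that chose the members enter this pattern. The difference between these effects was not tested, and the first value in each pair below is the change in TH237. The B-box factor was lower by -2.13 in TH237 and higher by 1.34 in T195. The GARP probe sets gave 1.57 and -1.18 (a_at) and 1.23 and -0.59 (x_at) with T195. ZFP7 gave 1.27 and -1.64 with T195, and the DRM1 probe sets gave 1.06 and -0.50 (x_at) and 0.93 and -0.48 (S1_at) with T195. The S1_at DRM1 probe set was dim on all Chris and T195 arrays, so that its order there is not measured, and the x_at one was dim on all T195 arrays. Among the PWI probe sets, the x_at one gave 1.0 and -1.03 with T195. The second PWI probe set gave 1.12 in TH237, -0.71 in T183 and -0.54 in T195. The brightest gave 1.19 in TH237, -0.92 in T183 and -1.27 in T195. ARR3 gave 1.40 and -0.57 with T183, and AGL20 gave -1.24 and 0.26 with T183. With the exception of the B-box factor, none of these changes in T183 or T195 was called.

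The s_at probe set of the GRP7 cluster differed between T183 and T195 by 1.31, with an adjusted p of 0.032 by limma. This probe set was picked because it was called in this comparison and shares a cluster with a member, so its difference is a description. Its adjusted p ran from 0.00897 to 0.991 over 26 alternatives, and it stayed past the threshold in 11 of them.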

How the results depend on the processing

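The number of members called in TH237 was 21 and remained 14 or more under each alternative with all arrays, with 1 exception. The exception was the methods' t-test adjusted over all probe sets, with 0 members called in TH237, 0 in T183 and 0 in T195. It called 1 member in T20 against Chris and 1 probe set of all 31555 in TH237. This Welch test was run on the deposited values with the filter used here. The study ran it on RMA values with another filter, so its procedure was not repeated. In T195, 1 member was called without the filter and 1 with a model of the lines compared only, and 0 by the methods' t-test with the 2-fold limit first, against 2. The B-box factor lost its call in T195 in each of these alternatives. With 64 added before the log2, 3 were called there, of which 1 was among these 2. Between T183 and T195, 1 member, remorin, was called with 1 added before the log2, against 0. The cause was not tested. Without 1 array, the counts were 13 to 22 in TH237, 1 in T183, 1 to 3 in T195, 7 to 9 in T20 against Chris, 0 to 1 between the Aegilops lines and 16 to 20 between the nuclei, with no called member turning its sign. The lowest count in TH237 came without TH237 replicate 1. The median change ran from 1.0 to 1.18 in TH237, -0.21 to 0.00 in T183, -0.59 to -0.32 in T195, 0.06 to 0.31 in T20 against Chris, 0.08 to 0.25 between the Aegilops lines and 0.78 to 0.94 between the nuclei.

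Centring arrays on their median moved the median change to 1.03 in TH237 and 0.72 between the nuclei, and turned the split of all calls in TH237 from 427 higher and 292 lower to 316 and 370, while the members went from 16 and 5 to 12 and 5. Between the nuclei the split went from 1892 and 1818 to 1505 and 2351, and the median of all probe sets moved from 0.02 to -0.12. With no fold limit 1353 of all probe sets were called in TH237 against 719, and 22 members. A replicate block left 21 members called in TH237, of which 20 were the same, and changed no other count of members, while over all probe sets the calls in TH237 went from 719 to 673. Its 30 same-numbered pairs correlated at -0.196 to 0.219, so numbers were not taken as pairs. Calls of dim members depend on the value added, since signals below the 55th percentile, 90.0 to 121, have no order.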
